A study of Sus scrofa with 12 samples.

Results

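The SLC25 family, the carriers that move metabolites across the inner membrane of mitochondria, was followed in the longissimus dorsi, a long back muscle, of 2 pig breeds. The members were all genes of the deposited table whose symbol is SLC25A followed by a number, leaving out SLC25A1 and SLC25A20, which gave 38 of 23271 listed genes. The groups were 6 libraries of the Laiwu, a Chinese breed known for fat-rich muscle, and 6 of the Yorkshire, a lean Western breed. Both groups are described as pigs of equal weight, and no treatment, age or sex is used here. The labels give breed and a number only, and whether each library is a separate animal is not stated. A p-value here therefore reflects the spread among these libraries, which may be technical. Of the 38 members, 32 had a mean of at least 0.5 FPKM (fragments scaled by gene length and library total) over the 12 libraries and were tested among 11205 genes, and 6 were too low to test.

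Each carrier of this family is a small protein built of similar repeats, and it exchanges one solute of the cytosol for another of the matrix, or lets it in together with a proton. Muscle depends on them to bring ADP, phosphate and reducing equivalents to the respiratory chain and to send ATP back to the contractile filaments. Close relatives often carry the same solute in different tissues, so which member is transcribed is itself a feature of the tissue.

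Each library held 54961358 to 67285809 counts. Markers of fast fibres summed to 35354 to 45775 FPKM and were above 0 in every library, which fits the labelled tissue, and markers of slow fibres to 687.7 to 3398 FPKM. The adipocyte markers summed to 31.7 to 170.0 FPKM in Laiwu and 22.7 to 62.6 FPKM in Yorkshire, with 0 of 7 at a count of 0 in any library. All 6 tested adipocyte markers were higher in Laiwu, with a median log2 fold change of 1.23. By edgeR all 6 had an unadjusted p under 0.05, as had 4.44% of all tested genes, and 0 were called after adjustment. In bulk tissue, fewer cells of a type and less RNA per cell cannot be told apart. Yorkshire 5 stands apart by gene length across all tested genes. Gene length here is the transcript length implied by a gene's counts and FPKM, not its span on the chromosome. Its deviation from the mean of the other 5 Yorkshire libraries had a Spearman's rho of -0.42 with gene length across all tested genes and of -0.47 across the 32 carriers, which share that library. Of the 16 shorter carriers, 14 were above that mean there, against 6 of the 16 longer ones, and it was the highest library of 6 carriers and the lowest of 7. Among the carriers, Yorkshire 4 deviated with length as strongly the other way, with a rho of 0.47, against 0.23 across all tested genes. The part of Yorkshire 5 in the results was not tested beyond leaving it out.

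The carriers covered a wide range of levels, and the same pair led in every library. SLC25A3 and SLC25A4 ranked first and second of the 38 in each of the 12 libraries and made up 53.5% to 62.1% of the family's summed FPKM. The sum over the family was 604.1 ± 69.4 FPKM in Laiwu (SD, n = 6) and in Yorkshire 570.7 ± 41.7 FPKM (SD, n = 6), from 503.4 in Laiwu 2 to 676.4 in Laiwu 3. That was 0.154% to 0.214% of all FPKM of a library. By mean level, 9 members were at 10 FPKM or more, 19 between 1 and 10 FPKM, and 4 between 0.5 and 1 FPKM. The mean of the highest tested member was 397.3 times that of the lowest. Of the 31 pairs of neighbours in the order of mean levels, 3 kept their order in all 12 libraries, namely SLC25A3 above SLC25A4, SLC25A4 above SLC25A25 and SLC25A44 above SLC25A43. SLC25A11 and SLC25A12, neighbours in that order, were each the higher of the pair in 6 libraries.

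**Figure D1:**
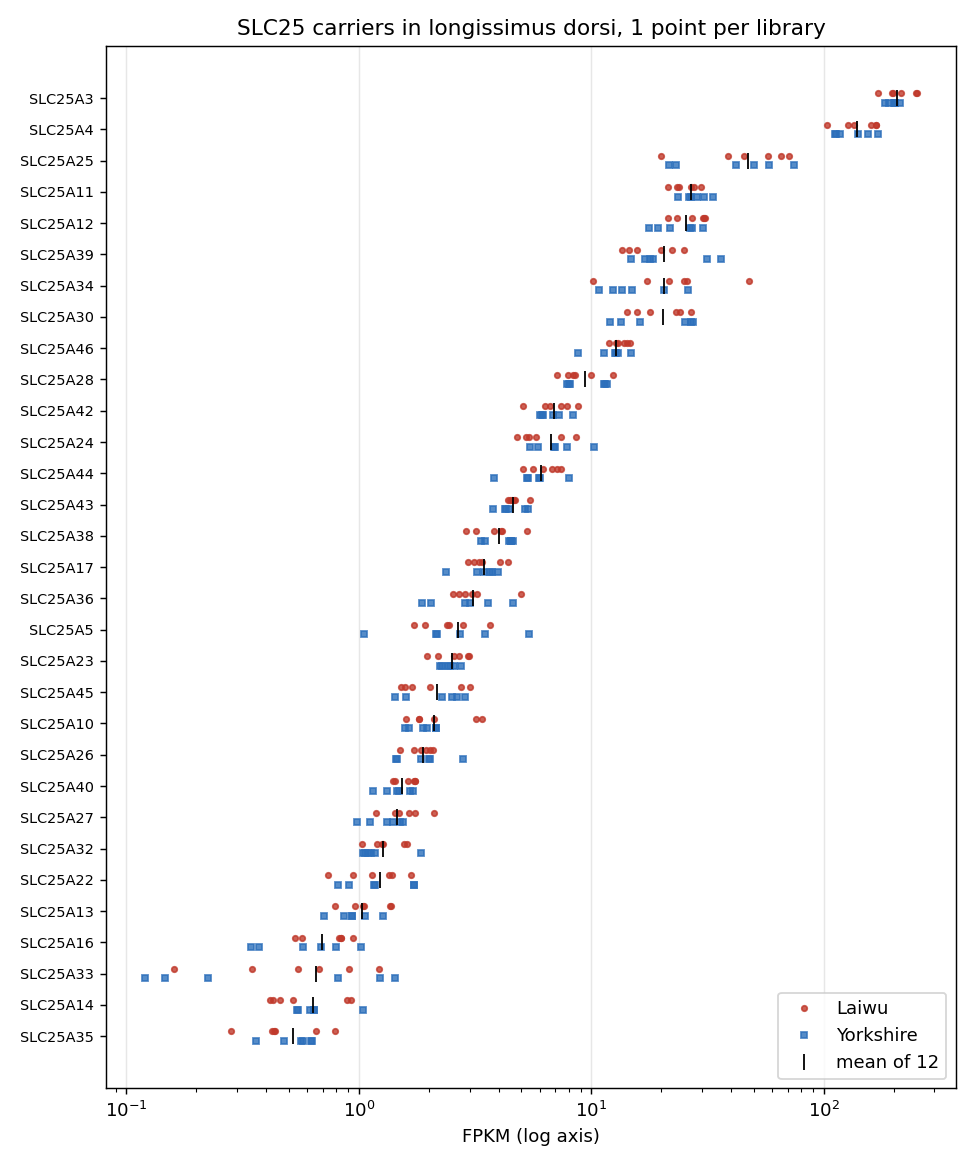
FPKM on a log axis (x) of 31 of the 32 tested carriers (y), ordered by mean level, with Laiwu libraries as circles, Yorkshire libraries as squares and the mean of 12 as a bar. SLC25A3 and SLC25A4 lie to the right of all other carriers in every library, and the points of the breeds overlap for each carrier.

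The mitochondrial phosphate carrier SLC25A3 (ENSSSCG00000000886; Sscrofa11.1 chromosome 5, 85284311 to 85292328), which brings phosphate into the matrix for ATP synthesis, was the most abundant carrier. It stood at 215, 198, 252, 197, 171 and 249.6 FPKM in Laiwu 1 to 6, and at 201, 191, 184, 214, 203 and 204 FPKM in Yorkshire 1 to 6. The Yorkshire values all lay inside the Laiwu range, and the Laiwu spread was the wider, with a coefficient of variation (SD over mean) of 14.9% against 5.30%. The gene is alternatively spliced, with a form typical of muscle, and the gene-level values do not separate the forms.

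SLC25A4, the heart and muscle ADP/ATP translocase that exports ATP from the matrix in exchange for ADP (ENSSSCG00000015790; chromosome 15, 46193746 to 46200987), came second. Its values in Laiwu 1 to 6 were 168, 103, 168, 136, 128 and 159.7 FPKM, and in Yorkshire 1 to 6 they were 118, 141, 113, 113, 155 and 171 FPKM. Low and high libraries occurred in both breeds, Laiwu 2 being the lowest and Yorkshire 6 the highest. The log2 fold change, Laiwu minus Yorkshire, was 0.05 ± 0.17 (SE) by edgeR with a 95% interval from -0.31 to 0.41 and an adjusted p of 0.977. It was just below 0 without Laiwu 1, Yorkshire 3 or Yorkshire 4, with a lowest value of -0.0234 without Yorkshire 3.

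SLC25A5, the X-linked translocase that is common in dividing cells (ENSSSCG00000012623; chromosome X, 97919290 to 97922239), was low. Laiwu 1 to 6 had 2.41, 1.73, 3.66, 1.92, 2.81 and 2.43 FPKM, and Yorkshire 1 to 6 had 2.14, 1.05, 5.42, 2.17, 3.495 and 2.73 FPKM. Both extremes lay in Yorkshire, in libraries 2 and 3. The log2 fold change was -0.19 ± 0.30 with a 95% interval from -0.82 to 0.45 (edgeR adjusted p = 0.942), and it was 0.04 without Yorkshire 3 and 0.09 by voom with quality weights. SLC25A4 thus held 95.4% to 99.3% of the FPKM of the 2 listed translocases in each library. The translocases resemble each other in sequence, which makes it uncertain how reads were divided between them. SLC25A6 and SLC25A31 had no entry under those symbols and so were not analysed here. SLC25A5 lies 12529 bases beyond SLC25A43 on the same strand, with 0 listed genes between them, and SLC25A43, whose solute is not settled, was at 4.70 ± 0.384 and 4.56 ± 0.605 FPKM (SD, n = 6 each).

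The ATP-Mg/phosphate carriers, which set the size of the adenine nucleotide pool in the matrix and are opened by calcium, were led by SLC25A25 (chromosome 1, 268531752 to 268576994). It was the third carrier by mean level. SLC25A25 stood at 71.3, 19.9, 38.8, 45.3, 65.3 and 57.6 FPKM in Laiwu 1 to 6 and at 23.2, 41.8, 50.0, 21.5, 58.5 and 74.9 FPKM in Yorkshire 1 to 6. The libraries of each breed ran over nearly the same range. Its relatives were lower. In Laiwu, SLC25A24 was at 6.21 ± 1.47 FPKM, and in Yorkshire at 7.22 ± 1.73 FPKM (SD, n = 6 each). SLC25A23 was at 2.56 ± 0.411 and 2.46 ± 0.195 FPKM. SLC25A41, a relative without the calcium-binding part, lies 5678 bases beyond SLC25A23 on chromosome 2 and had 0 to 26 counts a library, with 2 libraries at 0.

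The malate-aspartate shuttle carries the electrons of cytosolic NADH into the matrix through an oxoglutarate carrier and an aspartate/glutamate carrier, and one member of each stood near 25 FPKM. SLC25A11, the oxoglutarate carrier (chromosome 12, 51970806 to 51975548), had 23.5, 27.7, 26.9, 21.3, 23.8 and 29.7 FPKM in Laiwu 1 to 6. In Yorkshire 1 to 6 it had 30.7, 23.5, 26.3, 28.6, 33.5 and 26.9 FPKM. The highest value was that of Yorkshire 5 and the lowest that of Laiwu 4, with 10 libraries between. SLC25A12, the aspartate/glutamate carrier of muscle and brain known as aralar (chromosome 15, 77895938 to 78098383), had 30.3, 27.0, 30.5, 23.4, 21.3 and 31.0 FPKM in Laiwu 1 to 6 and 26.7, 21.8, 19.4, 30.4, 17.7 and 27.3 FPKM in Yorkshire 1 to 6. Its lowest library was Yorkshire 5, where SLC25A11 was highest. SLC25A13, the liver form known as citrin, was at 1.10 ± 0.230 and 0.964 ± 0.192 FPKM (SD, n = 6 each), and the glutamate carrier SLC25A22 at 1.20 ± 0.337 and 1.25 ± 0.395 FPKM.

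Of the other dicarboxylate carriers, SLC25A10, which exchanges malate or succinate for phosphate and is abundant in fat and liver (chromosome 12, 1189903 to 1197301), stood at 2.11, 1.59, 3.21, 1.82, 1.81 and 3.41 FPKM in Laiwu 1 to 6. In Yorkshire 1 to 6 it stood at 2.16, 1.64, 2.14, 1.58, 1.88 and 1.96 FPKM. Only Laiwu 3 and Laiwu 6 exceeded 2.2 FPKM, and the other 4 Laiwu libraries lay inside the Yorkshire range. The adipocyte markers summed to 170.0 and 135.9 FPKM in these 2 libraries, and to 22.7 to 76.1 FPKM in the other 10. Their part in the level of SLC25A10 was not tested. SLC25A21, the oxoadipate carrier, had 21 to 77 counts a library and was too low to test.

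The uncoupling-protein-like carriers were led by SLC25A30 (chromosome 11, 21848941 to 21865590), first described in kidney. It was at 15.7, 24.0, 14.3, 26.9, 17.9 and 23.2 FPKM in Laiwu 1 to 6 and at 27.0, 27.4, 13.4, 25.4, 12.1 and 16.2 FPKM in Yorkshire 1 to 6. Within each breed the libraries fell to both ends of the range, with Yorkshire 5 the lowest and Yorkshire 2 the highest. SLC25A27, also known as UCP4 (chromosome 7, 41426170 to 41457883), stood at 1.19, 1.74, 2.10, 1.64, 1.44 and 1.49 FPKM in Laiwu 1 to 6 and at 1.40, 1.54, 1.32, 1.51, 0.985 and 1.12 FPKM in Yorkshire 1 to 6. The Laiwu values reached higher, but 3 of the 6 lay inside the Yorkshire range. SLC25A14 was at 0.605 ± 0.236 and 0.672 ± 0.188 FPKM (SD, n = 6 each), on 38 to 92 counts a library.

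Carriers of glutathione and iron, which serve redox balance and the making of heme and iron-sulfur clusters, held 3.49% to 8.17% of the family's FPKM. SLC25A39, a glutathione importer (chromosome 12, 18915422 to 18919757), was at 22.3, 15.8, 13.5, 20.1, 25.1 and 14.6 FPKM in Laiwu 1 to 6 and at 17.9, 17.1, 31.4, 14.8, 36.2 and 18.4 FPKM in Yorkshire 1 to 6. Yorkshire 3 and Yorkshire 5 stood above every other library, and the other 4 Yorkshire libraries lay inside the Laiwu range. Its relative SLC25A40 was at 1.61 ± 0.158 and 1.47 ± 0.212 FPKM (SD, n = 6 each). The mitoferrin SLC25A28, an iron importer (chromosome 14, 110795307 to 110805570), was at 8.55, 7.11, 8.36, 12.4, 7.93 and 9.96 FPKM in Laiwu 1 to 6 and at 8.04, 11.4, 11.7, 8.09, 11.4 and 7.89 FPKM in Yorkshire 1 to 6. Both breeds held libraries near 8 FPKM and near 12 FPKM. SLC25A38, which brings in glycine for heme synthesis, was at 3.90 ± 0.833 and 4.14 ± 0.560 FPKM. The other mitoferrin, SLC25A37, had no entry under that symbol and so was not analysed here.

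SLC25A34, whose solute is not settled (chromosome 6, 74909705 to 74914426), was among the higher carriers and varied widely. It stood at 17.3, 10.2, 47.7, 25.9, 21.5 and 25.1 FPKM in Laiwu 1 to 6 and at 12.4, 26.1, 13.6, 10.8, 15.0 and 20.5 FPKM in Yorkshire 1 to 6. Laiwu 3 was far above the rest and was also the library of highest adipocyte marker sum, while Laiwu 2 was the lowest of the 12. Yorkshire 2, second highest for SLC25A34, had an adipocyte marker sum of only 26.8 FPKM, and Laiwu 6, second highest in that sum at 135.9 FPKM, had 25.1 FPKM of SLC25A34. The part of the adipocyte markers in this was not tested. SLC25A46, a divergent member of the outer membrane that takes part in mitochondrial fission (chromosome 2, 115529808 to 115555440), was steady at 11.9, 12.8, 14.2, 14.7, 13.9 and 13.0 FPKM in Laiwu 1 to 6. In Yorkshire 1 to 6 it was at 11.4, 12.7, 14.8, 13.1, 8.74 and 12.6 FPKM, and only Yorkshire 5 was below 11 FPKM.

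Carriers of nucleotides and cofactors were low, and 8 of them together made up 2.63% to 3.81% of the family. The highest was SLC25A42, which brings in coenzyme A, with a Laiwu mean of 7.02 ± 1.29 FPKM and a Yorkshire mean of 6.81 ± 0.882 FPKM (SD, n = 6 each). SLC25A17, a cofactor carrier of peroxisomes rather than mitochondria, was at 3.53 ± 0.561 and 3.41 ± 0.567 FPKM. The importer of S-adenosylmethionine, SLC25A26, was at 1.86 ± 0.214 and 1.93 ± 0.498 FPKM. The carrier of folate or FAD, SLC25A32, was at 1.32 ± 0.226 and 1.23 ± 0.313 FPKM. SLC25A16 was lower, at 0.758 ± 0.168 and 0.634 ± 0.261 FPKM. The pyrimidine nucleotide carriers SLC25A36 and SLC25A33 are described with the paralogous pairs. Among carriers of amino acids, SLC25A44, which takes in branched-chain amino acids, was at 6.37 ± 0.902 and 5.75 ± 1.37 FPKM. Its gene overlaps PMF1 on the same strand, so the 2 may share reads. Among the divergent or unassigned carriers, SLC25A45 was at 2.10 ± 0.636 and 2.22 ± 0.579 FPKM, and SLC25A35 at 0.503 ± 0.184 and 0.538 ± 0.102 FPKM.

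The 6 members below the minimum of 0.5 FPKM were SLC25A15, SLC25A47, SLC25A21, SLC25A41, SLC25A48 and SLC25A53. The ornithine carrier of the urea cycle, SLC25A15, was nearest to the minimum at 61 to 188 counts a library, and the liver carrier SLC25A47 had 15 to 87. SLC25A48 was at 0 in 6 libraries and at 7 to 16 counts in the others, and SLC25A53 was at 0 in 8 and at 4 to 8 in the others. Where no read was counted, as many as 3 counts are still possible from counting error alone. That is 0.0446 to 0.0546 CPM across the libraries, here scaled to the plain library total.

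The comparison of the breeds asked which carriers differ in level between Laiwu and Yorkshire muscle, and none was called. By the quasi-likelihood test of edgeR, adjusted by Benjamini-Hochberg, 0 of the 32 carriers were called, 0 higher and 0 lower, as were 0 of all 11205 tested genes, a background of 0%. At an unadjusted p under 0.05 there were 0 carriers, by edgeR, limma and DESeq2, where 4.44% of all tested genes passed by edgeR. With 1 library left out the count was 2 without Yorkshire 2 (SLC25A27 and SLC25A34) and 1 without Laiwu 1 (SLC25A27), Laiwu 2 (SLC25A34) or Laiwu 5 (SLC25A24). In 0 carriers did the libraries of one breed lie entirely above those of the other, against 0.178% of all tested genes.

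The fitted fold changes were small on the whole and went both ways. Of the 32 carriers, 18 were higher than 0 in log2 fold change and 14 lower, with a median of 0.02, against -0.001 over all tested genes, of which 49.7% were above 0. Their median absolute log2 fold change was 0.11, and that of all tested genes 0.12. The median SE was 0.166 for the carriers and 0.163 for all tested genes. The 95% interval lay between -1 and 1 on the log2 scale, that is within a 2-fold change either way, for 30 of the 32 carriers, the exceptions being SLC25A34 and SLC25A33. It lay between -0.5 and 0.5 for 16 of them.

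**Figure D2:**
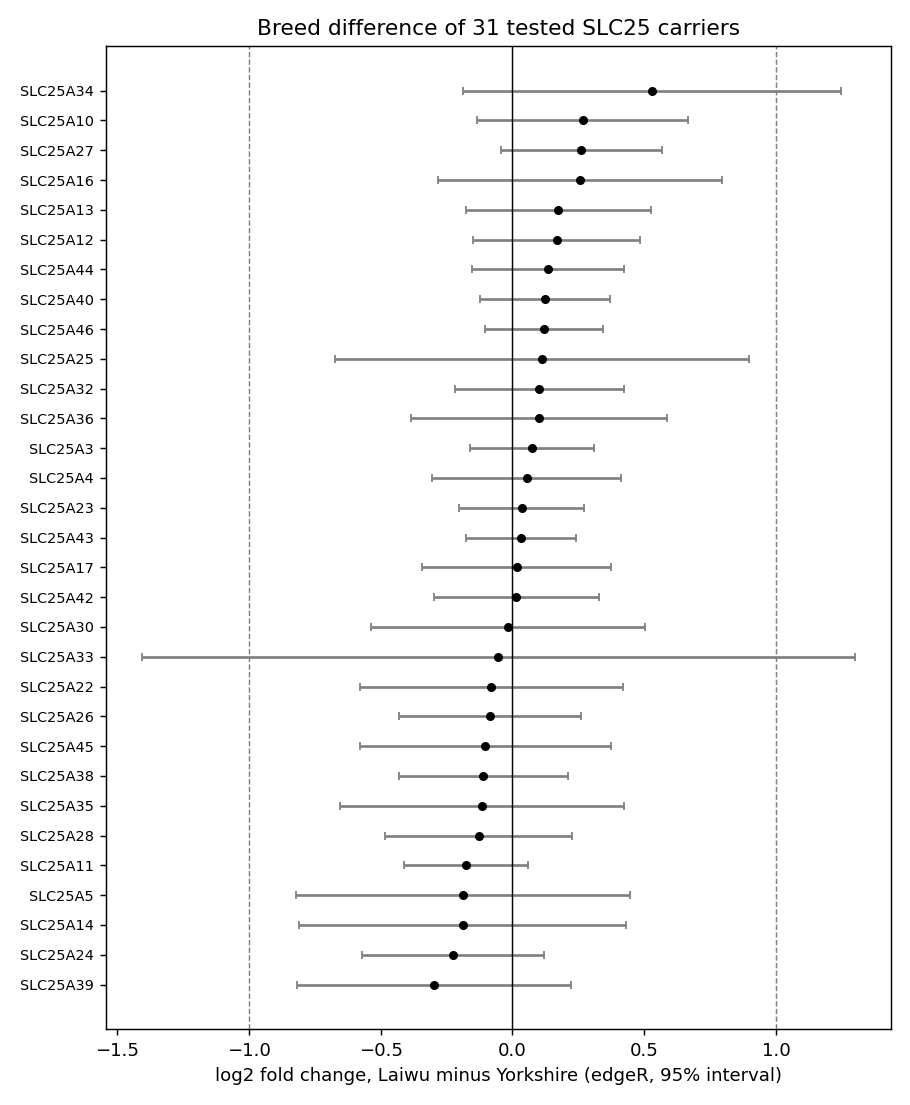
The edgeR log2 fold change, Laiwu minus Yorkshire (x), of 31 of the 32 tested carriers (y) with its 95% interval, and dashed lines at -1 and 1. Each interval includes 0, and those of SLC25A34 and SLC25A33 reach beyond a dashed line.

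The carriers of smallest p were SLC25A27, SLC25A11, SLC25A34, SLC25A10 and SLC25A24, each with an edgeR adjusted p of 0.912. SLC25A27 had a log2 fold change of 0.26 ± 0.14 (SE) with a 95% interval from -0.05 to 0.57 and an unadjusted p of 0.0890. SLC25A11 had one of -0.18 ± 0.11, with an interval from -0.41 to 0.06, or -0.10 without Yorkshire 5 and -0.23 without Yorkshire 3. SLC25A34 showed the largest fold change of the 32 carriers by edgeR on all libraries, at 0.53 ± 0.33 with an interval from -0.19 to 1.25. With 1 library left out, this value ran from 0.25 without Laiwu 3, the library of 47.7 FPKM, to 0.74 without Yorkshire 2. SLC25A10 was at 0.27 ± 0.19, with an interval from -0.13 to 0.67. It was at 0.14 without Laiwu 6, 0.16 without Laiwu 3 and 0.35 without Laiwu 2. SLC25A24, a calcium-regulated ATP-Mg/phosphate carrier, stood at 5.27, 7.43, 5.40, 5.82, 8.57 and 4.78 FPKM in Laiwu 1 to 6 and at 6.90, 5.90, 10.3, 6.97, 7.83 and 5.45 FPKM in Yorkshire 1 to 6. All but Yorkshire 3, the highest, lay between 4.78 and 8.57 FPKM, and the log2 fold change was -0.23 ± 0.16 with an interval from -0.57 to 0.12. It was -0.15 without either Yorkshire 3 or Laiwu 6, and -0.34 without Laiwu 5.

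**Figure D3:**
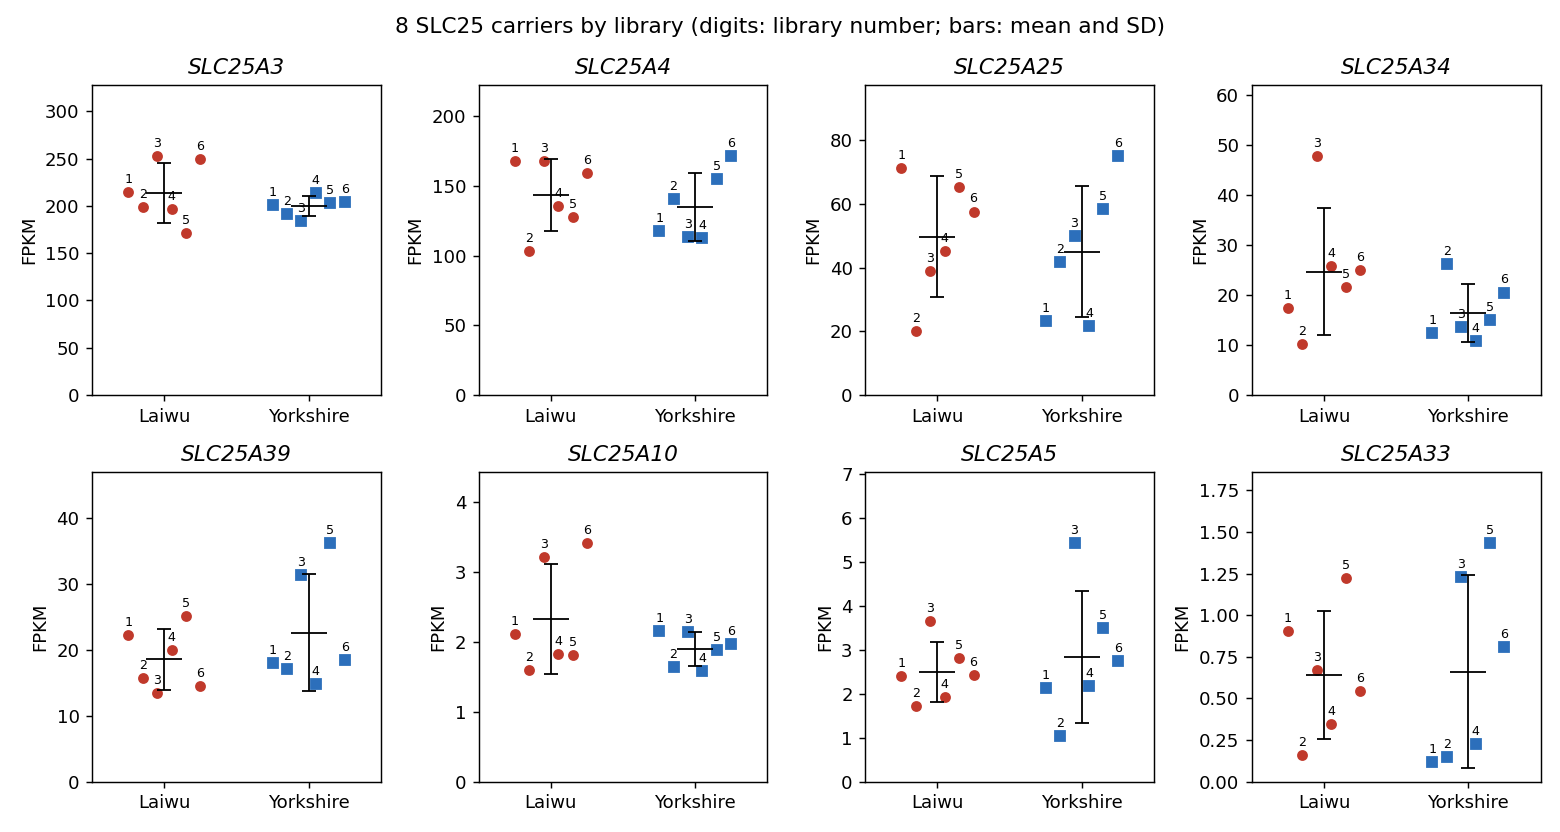
FPKM (y, from 0) of 8 carriers in each library, Laiwu as circles and Yorkshire as squares, with the library number beside each point and bars for the mean and SD of 6. The breeds overlap in every panel, and SLC25A34 in Laiwu 3 and SLC25A5 in Yorkshire 3 stand above the others.

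Ratios of related carriers within a library do not depend on how libraries are scaled, and 8 pairs were compared between the breeds by an exact two-sided permutation test over all divisions of the libraries into 6 and 6. None passed, with Benjamini-Hochberg adjusted p over the 8 pairs from 0.485 to 0.920. The smallest exact p, 0.0606, was that of SLC25A11 over SLC25A10. That ratio of FPKM was 8.39 to 17.4 in Laiwu and 12.3 to 18.1 in Yorkshire, a difference of -0.39 in mean log2 ratio (adjusted p = 0.485). SLC25A4 over SLC25A5 was 45.4 to 70.7 in Laiwu and 20.9 to 134.3 in Yorkshire, and the difference in log2 ratio was 0.14 (exact permutation p = 0.688), or -0.13 without Yorkshire 3. The aspartate/glutamate carriers kept a steady order, with SLC25A12 15.7 to 31.6 times SLC25A13 in Laiwu and 15.2 to 32.5 times in Yorkshire. The difference in their log2 ratio was 0.02 (exact permutation p = 0.920), and it fell below 0 without any of 5 single libraries, to -0.12 without Yorkshire 3.

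The pyrimidine nucleotide carriers gave the least steady ratio of the 8 pairs by its SD in each breed. SLC25A33 over SLC25A36 ran from 0.0556 to 0.399 in Laiwu and from 0.0419 to 0.765 in Yorkshire, with a difference of 0.19 in mean log2 ratio (exact permutation p = 0.820), or -0.17 without Yorkshire 1. SLC25A33, a carrier that insulin-like growth factor signalling is known to raise, was named for its spread after its values were seen. It stood at 0.906, 0.160, 0.672, 0.346, 1.23 and 0.546 FPKM in Laiwu 1 to 6 and at 0.120, 0.147, 1.23, 0.225, 1.43 and 0.811 FPKM in Yorkshire 1 to 6. Each breed held at least 1 library near 0.15 FPKM and at least 1 above 1 FPKM, on 12 to 137 counts. The gene overlaps ENSSSCG00000020625 on the same strand, so these genes may share reads. SLC25A36 was at 3.23 ± 0.888 and 3.00 ± 1.01 FPKM (SD, n = 6 each).

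The other pairs did not pass either. The difference in mean log2 ratio was 0.26 for SLC25A23 over SLC25A24 (exact permutation p = 0.199), or 0.15 without Yorkshire 3. For SLC25A23 over SLC25A25 it was -0.13 (exact permutation p = 0.773), or 0.09 without Yorkshire 4. It was -0.39 for the glutathione carriers SLC25A39 over SLC25A40 (exact permutation p = 0.240), or -0.21 without Yorkshire 5. For SLC25A14 over SLC25A30 it was -0.25 (exact permutation p = 0.543), or 0.02 without Yorkshire 5. In the glutathione pair, the ratio was highest in Yorkshire 5, at 27.4, and lowest in Laiwu 3, at 7.83.

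**Figure D4:**
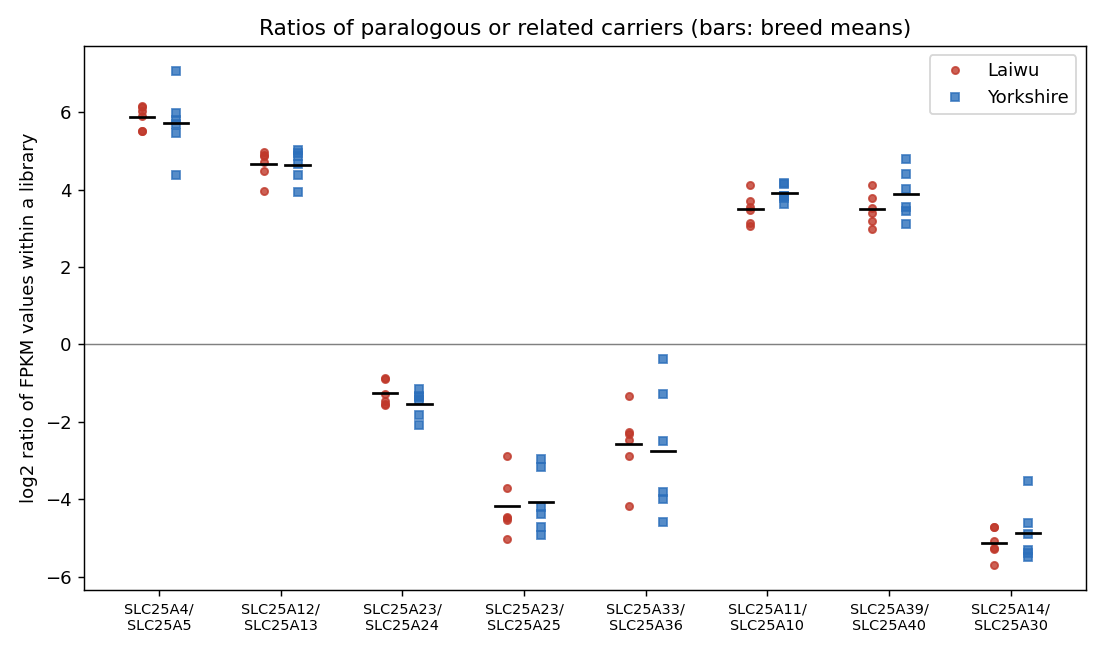
The log2 ratio of FPKM values of 8 carrier pairs within each library (y), Laiwu as circles and Yorkshire as squares, with bars for the breed means. The breeds overlap in each pair, and SLC25A33 over SLC25A36 spreads most within a breed.

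The carriers varied among libraries of one breed by amounts near those of all tested genes, above them in Laiwu and below in Yorkshire by the median. The coefficient of variation within a breed had a median of 21.2% in Laiwu and 20.4% in Yorkshire over the 32 carriers, against 17.5% and 22.0% over all tested genes. It exceeded 30% for 7 of the 32 carriers in Laiwu and 9 of the 32 in Yorkshire, near the 19.1% and 28.8% of all tested genes that did. Widest was SLC25A33, at 59.9% and 87.9%, with a highest value 11.9 times the lowest. Among the leading carriers, SLC25A25 was at 38.2% and 45.9% and SLC25A34 at 51.7% and 35.4%. Steady members included SLC25A46 in Laiwu at 7.57%, SLC25A43 at 8.17% and 13.3%, and SLC25A40 at 9.81% and 14.4%.

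**Figure D5:**
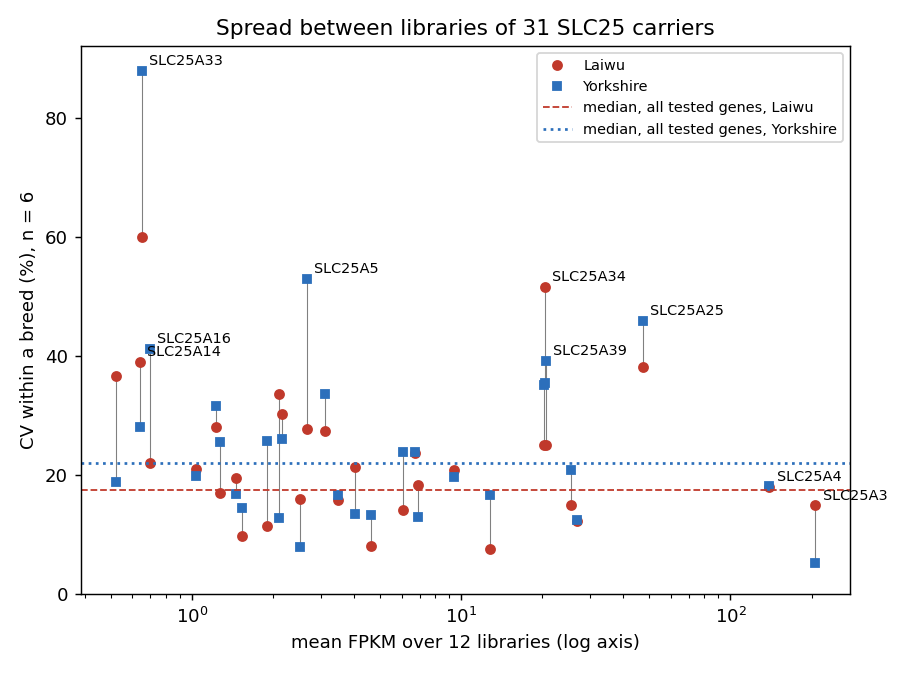
The coefficient of variation within a breed (y, n = 6) against mean FPKM on a log axis (x) for 31 of the 32 tested carriers, Laiwu as circles joined to Yorkshire as squares, with lines at the medians of all tested genes, 17.5% and 22.0%. SLC25A33 stands highest in both breeds, and SLC25A3 in Yorkshire is lowest at 5.30%.

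Slow oxidative fibres are rich in mitochondria, so each carrier was set against MYH7, the slow myosin heavy chain, which ran from 275.6 FPKM in Laiwu 1 to 1321 FPKM in Laiwu 5. CPM here means counts scaled to the library total as adjusted by TMM, the normalization of the edgeR test. On log2 CPM over 12 libraries, 0 of 32 carriers were related to MYH7 at a permutation p adjusted over all 11204 other tested genes, as were 0% of those genes, by Pearson's r and by Spearman's rho. At an unadjusted p under 0.05 there were 0 carriers by Pearson, against 4.93% of all genes, and 1 by Spearman, SLC25A43, against 7.56%. By Pearson on log2(FPKM + 1) there were 2, SLC25A23 and SLC25A11, against 6.09%. SLC25A23 was the only 1 with each breed centred on its mean (against 5.49%) and without Yorkshire 5 (against 6.09%). SLC25A43 was the only 1 without the 2 libraries farthest from the median of MYH7 (against 3.94%). Within Laiwu there was 1, SLC25A44 (against 5.46%), and within Yorkshire 0 (against 5.16%). For SLC25A43, rho was -0.69 (permutation p = 0.0154, adjusted p = 0.602) and r was -0.50 (permutation p = 0.0984), with -0.65 without the 2 libraries farthest from the median of MYH7 and -0.12 on log2(FPKM + 1). Pearson's r was above 0 for 13 carriers and below for 19, against 17 and 15 by Spearman or on log2(FPKM + 1) and 16 and 16 with each breed centred on its mean.

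The ends of that range were SLC25A23 and SLC25A40. SLC25A23, the calcium-regulated carrier, had an r of 0.55 (permutation p = 0.0625) and a rho of 0.46 (permutation p = 0.133). Its r was 0.14 without Laiwu 1 and Laiwu 4, the libraries farthest from the median of MYH7. It was 0.62 with each breed centred on its mean (permutation p = 0.0326) and 0.63 on log2(FPKM + 1) (permutation p = 0.0240). Without Yorkshire 5 it was 0.61 (permutation p = 0.0465), and none of these passed adjustment. Within the breeds, r was 0.72 in Laiwu and -0.002 in Yorkshire (exact permutation p = 0.103 and 0.997). SLC25A40 had an r of -0.52 (permutation p = 0.0722) and a rho of -0.50 (permutation p = 0.105), with r at -0.38 without Laiwu 1 and Laiwu 4. Within Laiwu and Yorkshire its r was -0.64 and -0.23 (exact permutation p = 0.142 and 0.696). The leading pair showed no relation that passed. For SLC25A3, r was -0.26 and rho -0.10 (permutation p = 0.415 and 0.767), and for SLC25A4, r was -0.34 and rho -0.11 (permutation p = 0.295 and 0.734).

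Genes that work with the carriers were not called either. Of family members listed under other names, UCP3, an uncoupling protein of muscle, had a Laiwu mean of 22.1 ± 18.5 FPKM and a Yorkshire mean of 15.0 ± 10.5 FPKM (SD, n = 6 each), MTCH1 at 15.0 ± 1.44 and 17.4 ± 3.30 FPKM, and UCP2 at 0.900 ± 0.296 and 0.839 ± 0.233 FPKM. UCP3 was thus near the level of SLC25A34 and SLC25A30. Carriers are brought into the inner membrane by the small TIM chaperones and the TIM22 complex after crossing the TOM pore. Of 13 tested genes of that machinery, 0 were called, 2 had a log2 fold change above 0 and 11 below, and the median was -0.11 against -0.001 over all tested genes. TOMM20, a receptor of the pore, was at 31.3 ± 3.68 and 29.3 ± 5.33 FPKM, and TIMM8B, a small chaperone, at 18.9 ± 1.72 and 21.0 ± 3.995 FPKM. Slow fibre markers, 7 of 8 below 0 with a median of -0.53, went the same way as the import genes. So did fast fibre markers (5 of 8, median -0.09), smooth muscle markers (3 of 3, -0.10) and macrophage markers (3 of 4, -0.18). Adipocyte, fibro-adipogenic progenitor, endothelial and erythroid markers had medians above 0. The part of these cell types in the import genes was not tested.

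Other transporters of the inner membrane had 7 of 12 tested genes above 0, 5 below and 0 called, with a median of 0.04. The calcium uniporter MCU was at 37.8 ± 8.97 and 43.0 ± 17.9 FPKM (SD, n = 6 each). The enzymes of the malate-aspartate shuttle had 4 of 4 above 0 and 0 called, with a median of 0.08. Matrix MDH2 and GOT2 were at 214.1 ± 31.6 and 139.5 ± 26.3 FPKM in Laiwu, well above SLC25A11 and SLC25A12, and at 209.96 ± 15.2 and 127.3 ± 20.5 FPKM in Yorkshire. CKMT2, the creatine kinase that takes ATP from the translocase in muscle, was at 65.5 ± 6.75 and 68.0 ± 7.89 FPKM, below SLC25A4 in level. The outer-membrane pore VDAC3 was at 130.2 ± 16.2 and 122.0 ± 11.1 FPKM.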

How the data were processed

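Poly(A) RNA was sequenced per the labels' protocols, with a kit that marks strand, and the authors aligned reads with HISAT2 2.2.1 to Sscrofa11.1 per the series' design text. Cutadapt 1.9, StringTie 1.3.4d, DESeq2 and edgeR appear, with no role, in the submitters' processing notes. The deposited table holds whole-number counts and FPKM values, per the file headers. Use of the strand in counting and the annotation release: not given in the sources used here. Of the 32 tested carriers, 12 overlap another listed gene, 4 on the same strand and 8 on the other, so such genes may share reads.

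Counts were tested with edgeR 4.0.16 (TMM, robust quasi-likelihood), Laiwu minus Yorkshire, adjusted over all tested genes at 0.05. Each SE was derived from the F statistic and the fold change. DESeq2 1.42.0, limma 3.58.1 and R 4.3.3 served alternatives, and Python 3.11.15 with matplotlib 3.10.9 the figures. Relations with MYH7 used 100000 permutations (12 libraries) or all 720 pairings (6), and p was adjusted over all tested genes rather than over the carriers, as planned first. Members, lists and tests were chosen with earlier results of these data known. By the rule for named genes, values in all libraries were given for the 10 carriers of highest level and the 5 of smallest p, and fold changes for those 5 and the translocases. SLC25A5 and SLC25A33 were added after their values were seen. The values of 1 tested carrier and 1 partner gene are not reported here, though counts and sums include them. No link between same-numbered libraries is stated, so the main tests did not pair the breeds by number.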

Additional observations from a re-analysis of the deposited data

Results flagged for a closer look

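Of 64 groups of 6 libraries (32 carriers in 2 breeds), 4 held a library at one end whose gap to its nearest neighbour, as a share of the group's range, was above Dixon's 95% critical value, and chance flags about 1 in 20 groups. SLC25A43 in Laiwu 3 stood at 5.45 FPKM, with the next library at 4.71. SLC25A36 in Laiwu 1 stood at 4.98 FPKM, with the next at 3.22. The folate or FAD carrier SLC25A32 was at 1.86 FPKM in Yorkshire 3, with the next at 1.17. SLC25A14 was at 1.04 FPKM in Yorkshire 5, with the next at 0.645. By the length implied by counts and FPKM, SLC25A14 had 1396 bases, against a median of 3285 over the tested carriers. Yorkshire 5 is the library that deviated most with that length across all tested genes. The part of length in this value was not tested.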

How the results depend on the processing

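The count of carriers called was 0 under every alternative run, which were DESeq2, limma on log2(FPKM + 1) and log2(FPKM + 0.1), library size without TMM, DESeq2 size factors, a minimum of 5 FPKM, no filter, voom with quality weights, an adjusted p under 0.1, a replicate block and each library left out. With the replicate block, 0 carriers were called and 0 of 8 pairs. Same-numbered libraries correlated at -0.27 to 0.33 in their deviations, with 1 of 6 Laiwu libraries best matched to its own number. With 1 library left out, 0 to 2 carriers had an unadjusted p under 0.05, the median log2 fold change ran from -0.003 to 0.06, that of SLC25A4 from -0.0234 to 0.15 and that of SLC25A5 from -0.35 to 0.0378, while voom with quality weights gave 0.0906 for SLC25A5. The difference in log2 ratio then ran from -0.13 to 0.41 for SLC25A4 over SLC25A5, -0.12 to 0.15 for SLC25A12 over SLC25A13, -0.39 to 0.0928 for SLC25A23 over SLC25A25, -0.17 to 0.67 for SLC25A33 over SLC25A36, -0.37 to 0.0222 for SLC25A14 over SLC25A30, 0.15 to 0.34 for SLC25A23 over SLC25A24 and -0.54 to -0.21 for SLC25A39 over SLC25A40. For SLC25A11 over SLC25A10 the difference ran from -0.51 to -0.30. Its exact permutation p was 0.00649 without Laiwu 2 (adjusted over the 8 pairs 0.0519). On log2(FPKM + 1) the difference was -0.0737 for SLC25A33 over SLC25A36. For SLC25A11 over SLC25A10 it was then -0.32 (exact permutation p = 0.0433, adjusted 0.346). Within Yorkshire, r with MYH7 was -0.00168 for SLC25A23, 0.23 for SLC25A3 and 0.10 for SLC25A4. The causes were not tested. Leaving out each library for the non-overlap count, and Yorkshire 5 for the relation with MYH7, was added after the data were seen.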

Other observations

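SLC25A44, the carrier of branched-chain amino acids, was picked out after its values were seen for its within-breed correlations with MYH7, neither of which passed adjustment. Pearson's r was 0.94 within Laiwu (exact permutation p = 0.00556, adjusted over all genes 0.794) and -0.76 within Yorkshire (exact permutation p = 0.0944, adjusted 0.770), and 0.18 over the 12 libraries (permutation p = 0.554). Without Yorkshire 5, which held the lowest SLC25A44 of the 12 libraries (3.83 FPKM) and the highest MYH7 of its breed (1079 FPKM), r was 0.54 (permutation p = 0.0842). The difference between the breeds was not tested. TIMM22, the core of the complex that inserts carriers into the inner membrane, also named after its value was seen, had a Laiwu mean of 4.58 ± 0.543 FPKM and a Yorkshire mean of 5.98 ± 0.514 FPKM (SD, n = 6 each). The log2 fold change was -0.41. Its unadjusted p was 0.00653 and its Benjamini-Hochberg adjusted p 0.912 by edgeR, and the other 12 tested import genes had an unadjusted p of at least 0.05.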
